A study of Danio rerio with 8 samples.

Results

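The genes described here encode digestive enzymes of the exocrine pancreas and were read in liver RNAseq of zebrafish. They were chosen by name, not by their values, from a list of 10 symbols: prss1, prss59.1, prss59.2, ctrb1, cpa1, cpa5, cpb1, ela2, ela2l and cel.1. These led to 11 of the 32520 gene rows of the count files. Of these, 7 rows have a symbol of their own: prss1 (ENSDARG00000042993), prss59.1 (ENSDARG00000079274), prss59.2 (ENSDARG00000073742), ctrb.1 (ENSDARG00000090428, listed as ctrb1), CPB1 (ENSDARG00000045442), ela2 (ENSDARG00000056744) and ela2l (ENSDARG00000056765). The other 4 rows share a symbol in the gene table. CPA1 (ENSDARG00000030915) and CPA1 (ENSDARG00000021339) are 1 such pair, and CEL (ENSDARG00000029822) and CEL (ENSDARG00000017490) are the other. Neither table tells which CPA1 row is cpa1, which CEL row is cel.1, or whether a row is cpa5, so these 4 rows are named by symbol and identifier.

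The livers came from 4 females on the Control diet (Control-1 to Control-4), a formula with several protein sources, and 4 females on the Whole Egg diet (Whole Egg-1 to Whole Egg-4), in which whole egg product replaced a part of the protein. The authors' Whole Egg formula also held more fat and energy and less wheat starch than the Control formula. Protein source therefore cannot be told apart from these other differences between the diets. Both diets were started at day 21, and the fish were 36 weeks old at harvest. The labels give neither a strain nor an allele, and the comparison of the diets asked how long-term feeding changes gene expression in the liver. Counts on genes summed to 16916307 to 35871236 per fish. No pair of libraries was a duplicate of another, and all 12 hepatocyte markers were detected and tested. Whole Egg-2 had the highest TMM normalization factor (1.72, against 0.682 to 1.18 in the other fish), the highest ovary marker level and the lowest hepatocyte marker level, with its values given beside the results.

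Acinar cells of the exocrine pancreas make digestive enzymes, most of them as inactive zymogens, store them in granules and secrete them through ducts into the intestine, where trypsin activates the others. In the zebrafish, exocrine tissue is spread along the intestine in adipose and connective tissue close to the liver, and it surrounds the endocrine islets. In bulk tissue, fewer cells of a type and less RNA per cell cannot be told apart.

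All 11 enzyme genes were detected in all 8 livers, with 59 to 7318 counts per gene and fish. Levels are given as CPM, counts scaled to the library size of each fish with TMM factors, and a log2 fold change is Whole Egg minus Control. Levels of different genes are not compared, since no gene lengths were used. Together the 11 genes took 0.0156% of the gene counts in Whole Egg-1 and 0.236% in Control-2, the lowest and the highest fish. Levels differed between fish of the same diet far more than between the diets, and the 11 genes varied together from fish to fish. No enzyme gene differed between the diets at an adjusted p of 0.1 in edgeR's quasi-likelihood test (0% of all genes tested did), and the groups of all 11 genes overlapped.

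**Figure D1:**
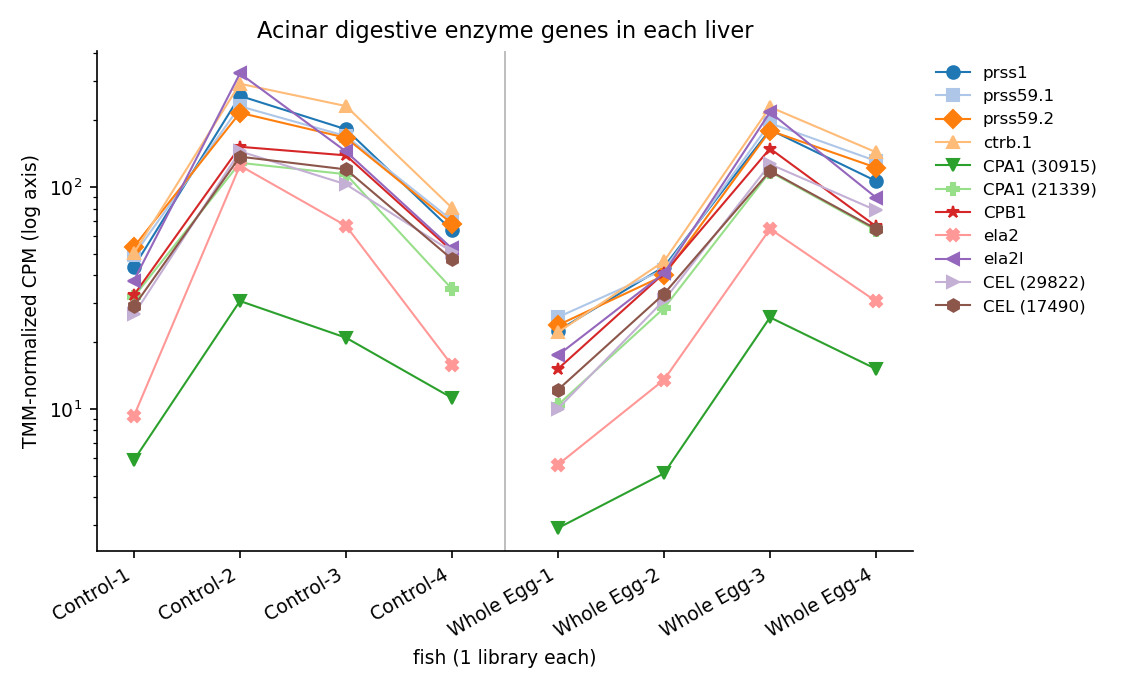
TMM-normalized CPM of the 11 enzyme genes (log axis) in each of the 8 livers, with 1 color and symbol per gene and lines that only join the points of a gene. Control-2 was highest and Whole Egg-1 lowest for all 11 genes, and each diet held both high and low fish.

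prss1 encodes trypsinogen, the zymogen of the protease that cuts after lysine and arginine. It had 43.7, 258, 182 and 63.8 CPM in Control-1 to Control-4, and 22.5, 43.7, 181 and 106 CPM in Whole Egg-1 to Whole Egg-4. The high fish were Control-2, Control-3 and Whole Egg-3, the lowest was Whole Egg-1, and the diets overlapped. The mean was 137 ± 101 CPM (SD, n = 4) in Control livers and 88.5 ± 71.4 CPM in Whole Egg livers. The difference was -0.63 ± 0.72 (log2 fold change ± SE), with adjusted p = 0.857 in edgeR and p = 0.457 in the two-sided exact permutation test over the fish. The 95% interval of that log2 fold change ran from -2.25 to 0.997.

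prss59.1 and prss59.2 encode further trypsin-family serine proteases and lie side by side in the GRCz12tu annotation, with 0 genes starting between them, while 55 genes start between prss1 and prss59.1. prss59.1 had 49.3, 231, 170 and 70.8 CPM in the Control fish in order, and 25.9, 42.4, 194 and 131 CPM in the Whole Egg fish. prss59.2 had 53.8, 216, 167 and 68.5 CPM in the Control fish, and 23.8, 39.9, 179 and 122 CPM in the Whole Egg fish. For both genes, Whole Egg-3 was the second highest fish after Control-2, Whole Egg-2 was above only Whole Egg-1, and the diets overlapped. The log2 fold change was -0.41 ± 0.69 (SE) for prss59.1 and -0.47 ± 0.67 for prss59.2, with edgeR adjusted p values of 0.898 and 0.886.

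ctrb.1 encodes chymotrypsinogen B, the zymogen of a protease that cuts after aromatic residues. It had 50.4, 292, 232 and 80.6 CPM in Control-1 to Control-4, and 22.1, 46.3, 229 and 143 CPM in Whole Egg-1 to Whole Egg-4. Control-3 and Whole Egg-3 had nearly equal levels, below Control-2 and above all other fish, and the diets overlapped. The mean was 164 ± 117 CPM in Control livers and 110 ± 95.2 CPM in Whole Egg livers (SD, n = 4). The difference was -0.57 ± 0.76 (log2 fold change ± SE), with adjusted p = 0.877 in edgeR and p = 0.429 in the exact permutation test.

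ela2 encodes an elastase, a further digestive protease. ela2 had 9.28, 125, 66.9 and 15.7 CPM in Control-1 to Control-4, and 5.61, 13.5, 64.7 and 30.6 CPM in Whole Egg-1 to Whole Egg-4. Control-2 was thus well above every other fish, Control-1 and Whole Egg-1 were the lowest, and the diets overlapped. This gene had the widest range of the 11, with 22.3-fold between the highest and the lowest fish, and the lowest log2 fold change. The diets differed by -0.92 ± 0.90 (log2 fold change ± SE; adjusted p = 0.843 in edgeR, p = 0.543 in the exact permutation test), with a 95% interval from -2.96 to 1.11.

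Its neighbor ela2l, with 0 genes starting between the pair in GRCz12tu, encodes a related elastase. ela2l had 37.9, 325, 145 and 52.9 CPM in Control-1 to Control-4, and 17.5, 40.9, 217 and 89.7 CPM in Whole Egg-1 to Whole Egg-4. Whole Egg-3 came next after Control-2, followed by Control-3, and the diets overlapped. On the log2 scale the diets differed by -0.62 ± 0.85 (SE), adjusted p = 0.880 in edgeR, and Control-2 was 18.6-fold above Whole Egg-1. Without Control-2 the log2 fold change of ela2l turned to 0.21, so its direction rested on that fish.

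The carboxypeptidases remove residues from the C-terminal end of peptides, type A preferring aromatic and aliphatic residues and type B basic residues. CPA1 (ENSDARG00000030915) had 5.88, 30.6, 20.9 and 11.2 CPM in Control-1 to Control-4, and 2.90, 5.12, 25.9 and 15.1 CPM in Whole Egg-1 to Whole Egg-4. CPA1 (ENSDARG00000021339) had 32.0, 129, 114 and 34.7 CPM in the Control fish, and 10.4, 28.5, 117 and 63.9 CPM in the Whole Egg fish. The 2 rows placed the 8 fish in the same order (Spearman rho of 1), and the diets overlapped in both. In each row the log2 fold change was -0.49, with an SE of 0.70 and 0.73 and an adjusted p of 0.886 for both in edgeR.

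CPB1 encodes procarboxypeptidase B. It had 32.6, 152, 139 and 51.6 CPM in Control-1 to Control-4, and 15.1, 40.8, 149 and 66.5 CPM in Whole Egg-1 to Whole Egg-4. Control-2, Whole Egg-3 and Control-3 lay close together at the top, Whole Egg-1 was lowest, and the diets overlapped. The mean was 93.8 ± 60.4 CPM in Control livers and 67.9 ± 58.0 CPM in Whole Egg livers (SD, n = 4). The difference was -0.47 ± 0.70 (log2 fold change ± SE), with adjusted p = 0.886 in edgeR.

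CEL is the bile salt-activated lipase, which hydrolyzes cholesterol esters and other lipids in the intestine and, unlike the proteases, is not made as a zymogen. CEL (ENSDARG00000029822) had 26.6, 145, 103 and 51.1 CPM in Control-1 to Control-4, and 10.03, 30.9, 127 and 78.5 CPM in Whole Egg-1 to Whole Egg-4. CEL (ENSDARG00000017490) had 29.0, 137, 120 and 47.3 CPM in the Control fish, and 12.2, 33.0, 118 and 64.7 CPM in the Whole Egg fish. Both rows were highest in Control-2 and lowest in Whole Egg-1, and their diets overlapped. For CEL (ENSDARG00000029822) the log2 fold change was -0.40 ± 0.74 (SE; adjusted p = 0.903 in edgeR), and for CEL (ENSDARG00000017490) it was -0.55 ± 0.69 (adjusted p = 0.871).

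Across the diets, 0 of the 11 enzyme genes was called by edgeR, beside 0% of the 13379 genes tested. At an unadjusted p under 0.05 there were 0 of 11, beside 3.9% of all genes tested, and DESeq2 also called 0 of 11, beside 0% of 13208 genes. Of the 11 genes, 0 had diets that did not overlap, beside 2.14% of all genes tested. All 11 log2 fold changes were below 0, from -0.92 to -0.40, beside 45.8% of all genes tested below 0. Their median was -0.49, beside 0.04 over all genes tested. Since the 11 genes moved together across fish, these are not 11 separate results. The lower end of the 95% intervals reached -2.96 and the upper end 1.29, so the intervals of the 11 genes together spanned falls and rises between these values. The exact permutation p values ran from 0.429 to 0.571, where the smallest p that 35 splits can give is 0.0286.

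The sign of the difference depended on the fish. Without Control-2, the log2 fold changes ran from -0.21 to 0.21, with 8 of 11 below 0 and prss59.1, ela2l and CEL (ENSDARG00000029822) above it. Without Whole Egg-3 they ran from -1.70 to -0.96. With Control-2 and Whole Egg-2 both left out they ran from -0.01 to 0.46, with 1 of 11 below 0. No enzyme gene was called in any of these fits.

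**Figure D2:**
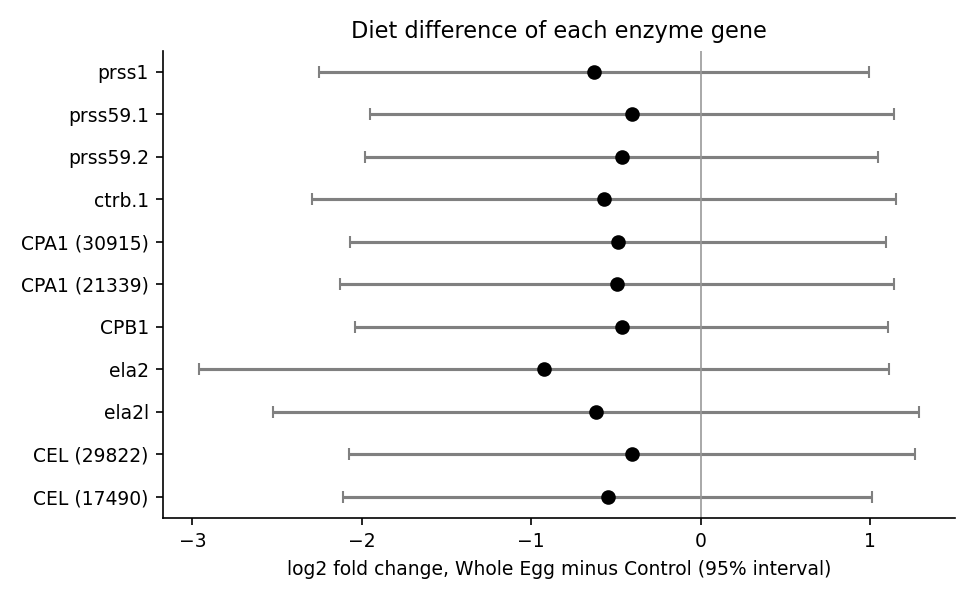
Log2 fold change (Whole Egg minus Control) of each enzyme gene from edgeR over 8 fish, with points for the estimate and bars for the 95% interval. All 11 points lie between -0.92 and -0.40, and every bar crosses 0.

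Summed over the 11 genes, the level was 370.5 CPM in Control-1, 2040 in Control-2, 1459 in Control-3 and 548 in Control-4. It was 168 CPM in Whole Egg-1, 365 in Whole Egg-2, 1604 in Whole Egg-3 and 912 in Whole Egg-4. The Whole Egg range thus held all Control fish but Control-2. The mean was 1104.5 ± 785 CPM in Control livers and 762 ± 643 CPM in Whole Egg livers (SD, n = 4), a ratio of 0.690. Between the highest and the lowest fish the sum differed 12.1-fold, 5.51-fold within the Control diet and 9.54-fold within the Whole Egg diet. For comparison, the within-diet SD of log2 CPM was 1.18 to 1.63 for the enzyme genes and 0.48 for the median of all genes tested, and the enzyme genes stood at percentiles 92.0 to 95.8 of all genes tested.

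The order of the fish was nearly the same for every enzyme gene. Control-2 was highest in 11 of 11 and Whole Egg-1 lowest in 11 of 11. Control-3 and Whole Egg-3 took places 2 and 3 in all genes, Whole Egg-4 place 4, Control-4 place 5, and Control-1 and Whole Egg-2 places 6 and 7. With total counts in place of TMM factors, Whole Egg-2 moved to place 5 in the order of the summed level, Control-4 to 6 and Control-1 to 7, while both ends kept their places. Whole Egg-2 is the fish with the highest TMM factor, and its sum was 626 CPM by total counts against 365 CPM by TMM.

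Over the 8 fish, Pearson's r of log2 CPM ran from 0.956 to 0.998 over the 55 pairs of enzyme genes, with a median of 0.982, and Spearman's rho from 0.952 to 1 with a median of 0.976. The exact permutation p values, adjusted over the 55 pairs, ran from 0.000114 to 0.000397 for r and from 0.000227 to 0.00114 for rho. Without the 2 fish farthest from the median, r ran from 0.933 to 0.997, and for deviations from the diet means from 0.953 to 0.999. Within the 4 Control fish the median r was 0.984, and within the 4 Whole Egg fish 0.991, both as descriptions with no test. The pair with the highest r was prss59.1 with prss59.2, and the pair with the lowest was ela2 with CEL (ENSDARG00000029822). The points of each pair come from the same libraries. Reads that map to several places were left out, so the split of counts between near-identical copies is uncertain.

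**Figure D3:**
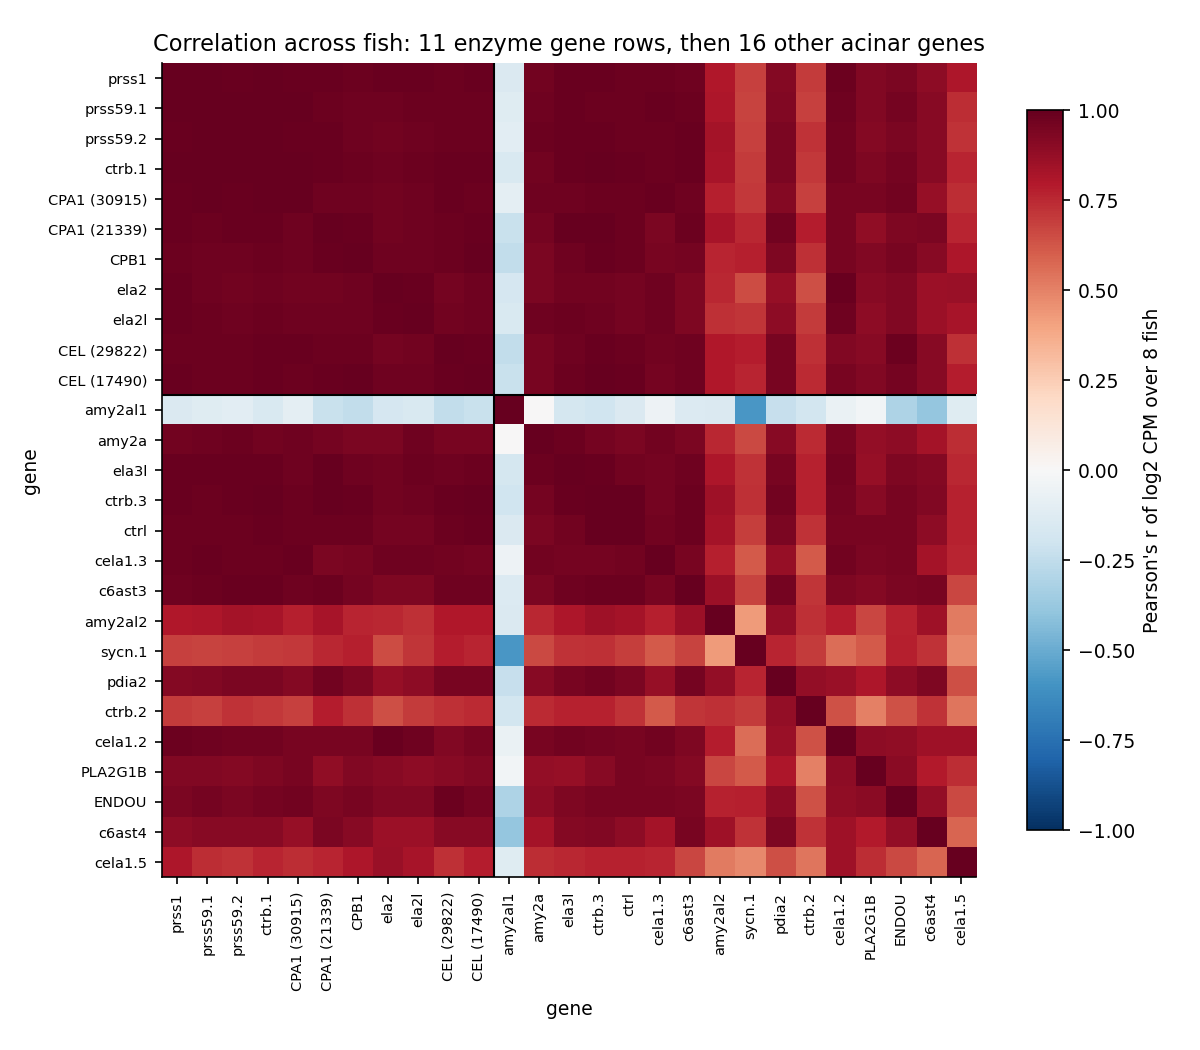
Pearson's r of log2 CPM over 8 fish for every pair of the 11 enzyme genes (above and left of the black lines) and 16 of the other acinar genes tested, on a color scale from -1 to 1. All pairs of enzyme genes lie between 0.956 and 0.998, and amy2al1 has values below 0 with the enzyme genes.

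The makeup of the enzyme counts changed less from fish to fish than their amount. The share of prss1 in the enzyme counts of a fish lay between 11.3% and 13.4%, a 1.18-fold range, while its CPM ranged 11.4-fold. ela2 moved most, from 2.51% in Control-1 to 6.12% in Control-2, a 2.44-fold range, and ela2l was next with 9.64% in Control-4 and 15.9% in Control-2. Both elastases thus took their largest share in the fish with the highest summed enzyme CPM. By diet, the mean shares lay close together, for example 12.3% and 13.4% for prss59.1 and 12.1% and 12.1% for prss1 (Control and Whole Egg), with no test made.

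**Figure D4:**
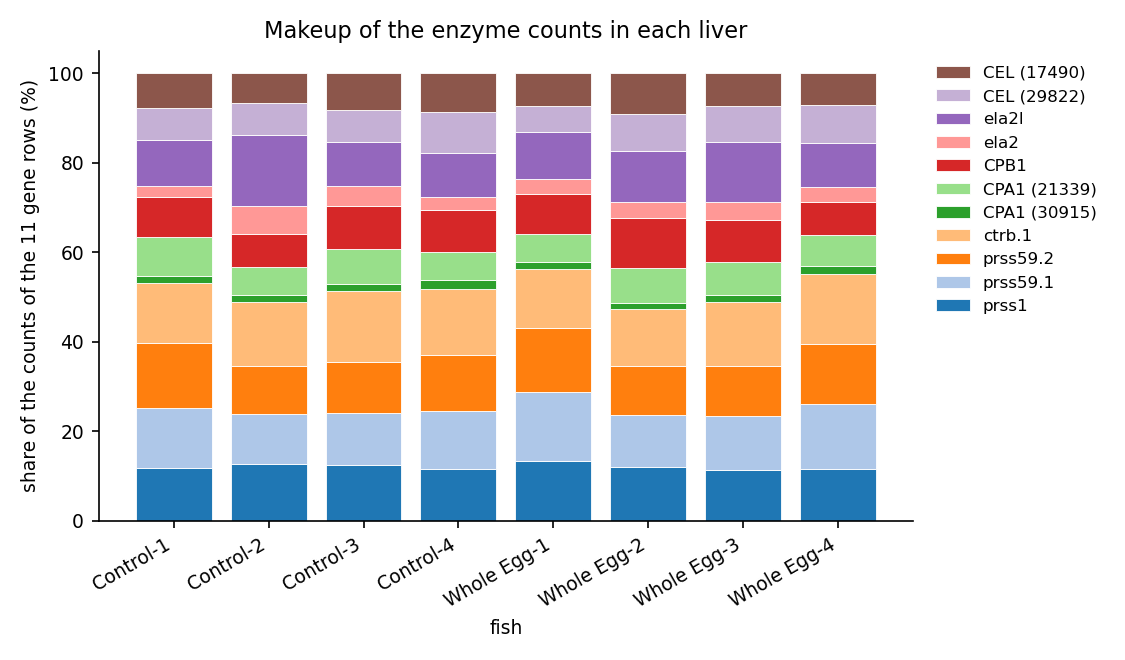
Share of each gene in the summed counts of the 11 enzyme genes, in percent, in each of the 8 livers (stacked bars that add up to 100%). The shares of ela2 and ela2l were largest in Control-2 (6.12% and 15.9%), and that of prss1 stayed between 11.3% and 13.4% in all fish.

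The rest of the acinar programme followed the enzymes for most genes. Of a list of 35 other acinar symbols, 22 further gene rows were found and 18 passed the filter. Of these, 0 were called in either direction by edgeR or DESeq2, and 0 had an unadjusted p under 0.05 in edgeR. Their median log2 fold change was -0.68, beside 0.04 over all genes tested. Below 0 were 17 of 18, beside 45.8% of all genes tested. The median was -0.31 without Control-2, and -0.06 without both Control-2 and Whole Egg-2. Most of these genes moved with the enzymes across fish, so they are not separate results. Among the 18, 13 had r above 0.9 with the mean of the enzyme genes (median r 0.958), beside 0.127% of the 13350 other genes tested and a median r of -0.003 over them.

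Among the other acinar genes with the highest mean were amy2al1, amy2a, ela3l, ctrb.3, ctrl, cela1.3 and c6ast3. amy2a, an alpha-amylase gene for starch digestion, had 38.6, 215, 89.8 and 43.7 CPM in Control-1 to Control-4, and 12.3, 19.3, 139 and 66.1 CPM in Whole Egg-1 to Whole Egg-4. It had r of 0.969 with the enzymes and kept their order at both ends. ela3l, ctrb.3, ctrl, cela1.3 and c6ast3, all protease genes, had r of 0.990, 0.993, 0.987, 0.978 and 0.976. Control-2 or Control-3 was highest in each of these, and Whole Egg-1 was lowest.

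amy2al1 did not share this pattern. It had 176, 165, 130 and 170 CPM in the Control fish, and 211, 63.8, 115 and 104 CPM in the Whole Egg fish, with r of -0.17 with the enzymes. Whole Egg-1, the lowest fish for the enzymes, was the highest for amy2al1. sycn.1, which encodes syncollin, a zymogen granule protein, was chosen after its values were seen. It had 1.26, 2.58, 1.96 and 2.27 CPM in the Control fish and 0.148, 3.22, 9.09 and 1.93 CPM in the Whole Egg fish. The difference was 0.84 ± 0.83 (log2 fold change ± SE), with adjusted p = 0.843 in edgeR, and sycn.1 was the 1 gene of the 18 above 0. Its counts ran from 3 in Whole Egg-1 to 223 in Whole Egg-3, and its r with the enzymes was 0.72. Another row with a syncollin symbol, SYCN (ENSDARG00000103687), lay outside both lists and went the other way. SYCN had r of 0.926 with the enzymes and a log2 fold change of -0.52 (adjusted p = 0.875 in edgeR).

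Outside both lists, the 8 genes with the highest r with the mean of the enzymes over 8 fish were CELA1 (ENSDARG00000017314), CELA1 (ENSDARG00000043175), si:ch211-240l19.5, si:ch211-240l19.8, zgc:92590, DNASE1, CRAT and ENSDARG00000101621. CELA1 (ENSDARG00000017314) carries an elastase symbol and had r of 0.990. Its values were 111, 398, 416 and 165 CPM in the Control fish, and 49.9, 101, 376 and 262 CPM in the Whole Egg fish. The other 7 had r from 0.930 (ENSDARG00000101621) to 0.970 (CELA1, ENSDARG00000043175). They were selected for these values, so no test is given.

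The transcription factors of acinar cells and the markers of neighboring cell types showed other patterns across the fish. Sums over marker lists were set beside the summed enzyme level on the log2 scale over 8 fish as descriptions, since the enzymes were chosen as a set. The sum of the other acinar genes had r of 0.863 and rho of 0.976 (r of 0.949 without the 2 fish farthest from the median). amy2al1, which did not share the pattern of the enzymes, held 211 of the 257 CPM of this sum in Whole Egg-1. The lowest fish of this sum was Whole Egg-2, with 162 CPM. The 5 acinar transcription factors summed to 58.1 to 62.1 CPM in the Control fish and 31.4 to 63.5 CPM in the Whole Egg fish, with r of 0.362 (0.325 without Whole Egg-2 and Whole Egg-3). Their sum came mostly from GATA6 and NR5A2, which are also expressed in liver. PTF1A, the factor that defines acinar fate, had 4 counts in all and 0 counts in 5 fish, where a count of 0 allows up to 3 counts per fish by counting error alone. RBPJL, its partner, had 49 counts in all, with 1 to 14 per fish. BHLHA15, another factor of the list, passed the filter and had 371 counts in all, with 31 to 78 per fish. BHLHA15 had r of -0.04 with the mean of the enzyme genes, beside 0.34 for GATA6 and 0.31 for NR5A2. The r was 0.62 for RBPJL and 0.09 for PTF1A, both with few counts. The log2 fold change of BHLHA15 was -0.70 ± 0.37 (SE), with adjusted p = 0.810 in edgeR.

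Endocrine pancreas markers did not run with the enzymes. Their summed level was 0.275 to 1.62 CPM in the Control fish and 0.603 to 8.60 CPM in the Whole Egg fish, 0 of 14 rows passed the filter and r was -0.212 (0.199 without Control-4 and Whole Egg-1). ins, the insulin gene, had 2, 1, 21 and 0 counts in Control-1 to Control-4, and 83, 2, 81 and 1 counts in Whole Egg-1 to Whole Egg-4. Whole Egg-1, with the fewest enzyme counts, had the most ins counts, and Whole Egg-3 was high for both. gcga, the glucagon gene, was also highest in Whole Egg-1, with 32 counts, followed by 13 in Whole Egg-3 and 12 in Control-2.

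Duct markers summed to 156 to 211 CPM in the Control fish and 102 to 188 CPM in the Whole Egg fish (4 of 5 rows tested, r of 0.551, -0.715 without Whole Egg-1 and Whole Egg-2). Intestinal epithelium markers summed to 220 to 376 CPM in the Control fish and 132 to 386 CPM in the Whole Egg fish (5 of 21 rows tested, r of 0.605, 0.663 without Whole Egg-2 and Whole Egg-4). Their leading rows were krt18a.1 and ANXA4 for duct and 2 RBP2 rows for intestine. alpi.1, a brush border phosphatase of enterocytes, had 0 counts in all 8 fish.

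Ovary markers summed to 460 CPM in Whole Egg-2 and to 3.25 to 54.3 CPM in the other 7 fish, led by zp3b and buc, with r of 0.298 (0.773 without Whole Egg-1 and Whole Egg-2). Hepatocyte markers, led by tfa and apobb.1, summed to 12344 CPM in Whole Egg-2 and 28040 to 43350 CPM in the others, with r of 0.328 (-0.328 without Control-2 and Whole Egg-2). Blood markers, led by hbaa1 and alas2, summed to 30.1 to 76.1 CPM (r of 0.677, 0.562 without Whole Egg-1 and Whole Egg-4), and adipocyte markers, led by fabp4a and plin1, to 0.530 to 2.22 CPM (r of 0.103, 0.190 without Control-3 and Whole Egg-3). Total counts had r of 0.088 with the summed enzyme level (-0.620 without Control-3 and Whole Egg-4), and the TMM factor 0.119 (0.617 without Control-4 and Whole Egg-2). With the 2 farthest fish left out, several of these values thus moved widely or changed sign. Of the marker genes, edgeR called 0 between the diets, beside 0% of all genes tested. At an unadjusted p under 0.05 in edgeR there were 2 of 10 ovary genes and 1 of 5 intestinal genes tested. The share over all genes tested was 3.9%. Each of these marker genes had most of its counts in 1 fish. Whole Egg-2 held 2814 of the 3464 counts of buc and 515 of the 615 of DAZL. Control-2 held 1090 of the 1297 counts of ANPEP (ENSDARG00000103878). The part of other cell types in the enzyme levels was not tested.

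**Figure D5:**
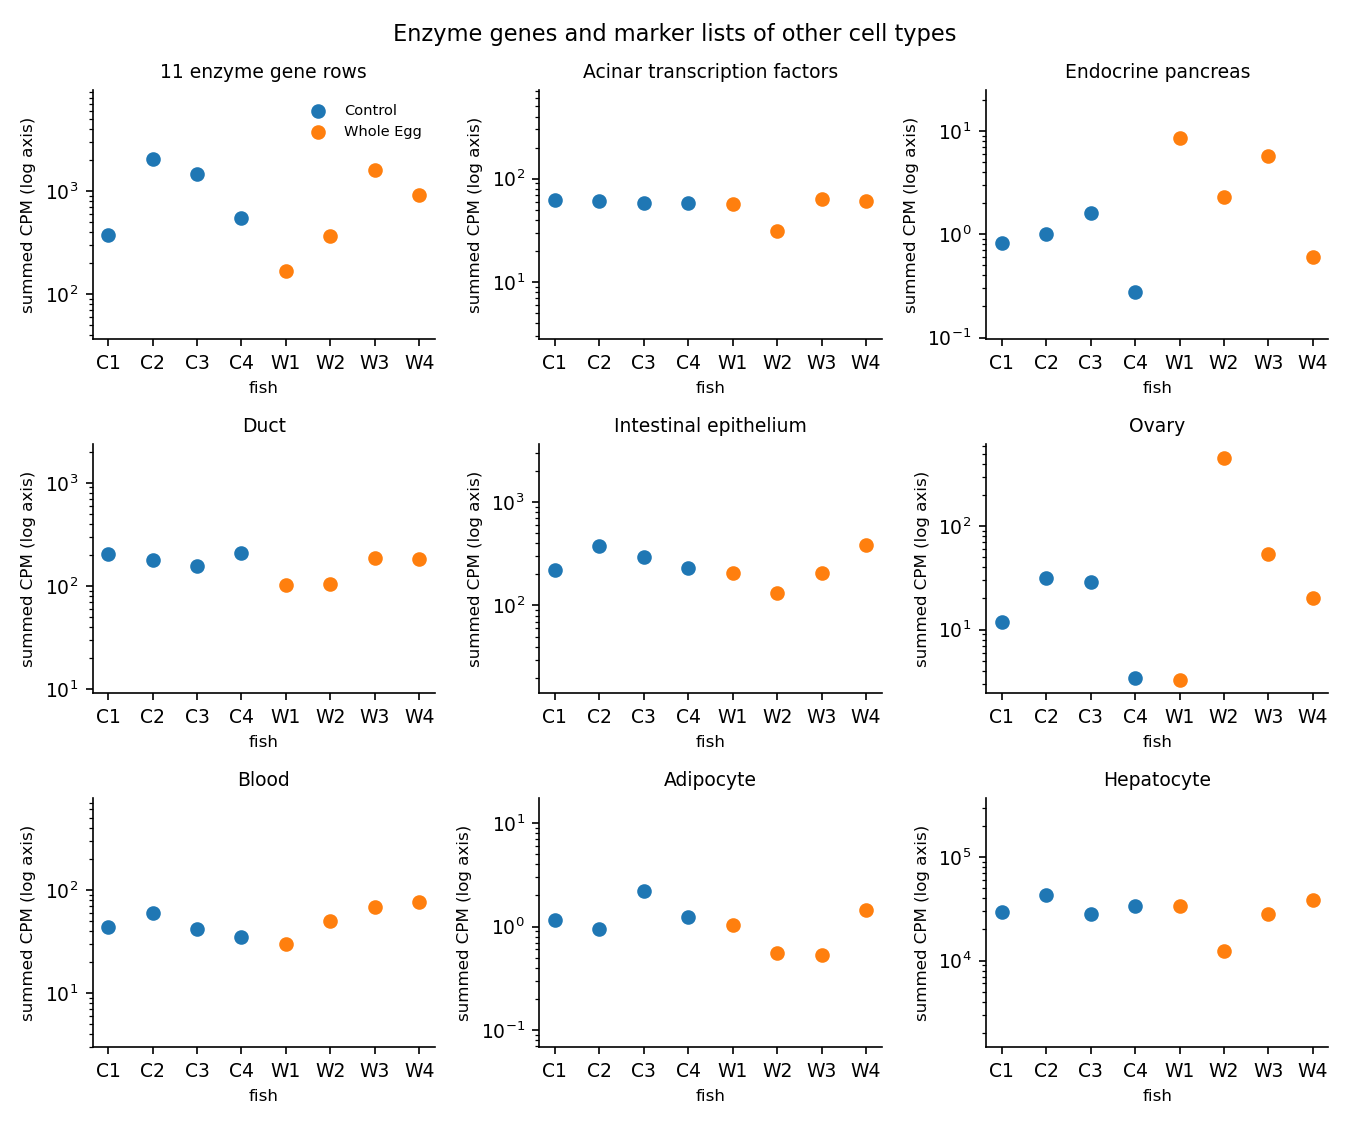
Summed TMM-normalized CPM (log axis, same number of decades in each panel) of the 11 enzyme genes and of 8 marker lists in each fish, blue for Control (C1 to C4) and orange for Whole Egg (W1 to W4). The enzymes spanned 168 to 2040 CPM, endocrine markers were highest in Whole Egg-1, and ovary markers were highest in Whole Egg-2.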

How the data were processed

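RNAseq of whole liver was analyzed for 8 female zebrafish, 4 per diet, with 1 library per fish. The authors depleted ribosomal RNA, made strand-specific libraries, filtered the reads with Trimmomatic 0.36 and aligned them to GRCz11 with STAR 2.5.2b (versions from the submitters' processing notes). The deposited values are raw counts of reads per Ensembl gene, with no normalization, for both strands together and for each strand. Column 4 (97.9% of all stranded counts) was taken. STAR counts a read only where it maps to 1 place, and 33.9 to 37.9% of the reads of a fish had several places and were lost to the count, so genes with near-identical copies may be undercounted.

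Genes were named from a gene table that gave a symbol for 29201 of 32520 rows, and rows without a symbol kept their Ensembl identifier. A listed symbol that the gene table lacked was looked up through the symbols and synonyms of the RefSeq annotation of GRCz12tu. Coordinates and sequences are not given, because no genome or sequence table of the files' build was used here. The tests were made in R 4.3.3 with edgeR 4.0.16 (quasi-likelihood test, TMM normalization, filterByExpr with a minimum count of 10, Benjamini-Hochberg adjustment over the 13379 genes tested, threshold adjusted p of 0.1 as in the study's methods) and, as an alternative, DESeq2 1.42.0. Single genes were also tested by exact permutation (two-sided, all 35 divisions of 8 fish into 4 and 4), and correlations with all 40320 orders of 8 fish. CPM are library-scaled counts with TMM factors, and a prior count of 2 was added for log2 CPM. The tests were checked on simulated data.

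The enzyme genes, the marker lists and the tests were chosen with earlier results of these data known. All enzyme genes are named with the value in every fish. From the list of other acinar genes the 8 with the highest mean CPM are named, except 1 that is not reported here, from outside both lists the 8 genes most correlated with the enzymes, and from each marker list the 2 with the highest mean CPM; any other gene was chosen after its values were seen. The marker lists cover acinar transcription factors, endocrine pancreas, duct, intestinal epithelium, ovary, blood, adipocytes and hepatocytes. Alternatives were other normalizations, filters and thresholds, DESeq2, the fish number as a block, the count without regard to strand, 6 fish in place of 8, and leaving out each fish in turn. DESeq2 with the block and the use of the 7 rows with a symbol of their own were chosen after seeing the data. Fish of a diet were separate animals, and tank and sequencing run are not given in the sources used here.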

Additional observations from a re-analysis of the deposited data

How the results depend on the processing

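The main comparison kept 0 enzyme genes called, and 0 other acinar genes, under all 19 alternatives. Over all genes, 0 were called under 18 of the 19 alternatives, and DESeq2 with the replicate block called 20 (0 of them enzyme genes); the cause was not tested. The directions of prss59.1, ela2l and CEL ENSDARG00000029822 changed when Control-2 alone was left out. Those of the other enzyme genes did not change when any single fish was left out. With Control-2 and Whole Egg-2 both left out, the log2 fold change turned above 0 for prss1 (0.10), prss59.1 (0.27), prss59.2 (0.17), ctrb.1 (0.12), CPA1 ENSDARG00000030915 (0.20), CPA1 ENSDARG00000021339 (0.077), CPB1 (0.045), ela2 (0.13), ela2l (0.46) and CEL ENSDARG00000029822 (0.25). Leaving out each fish in turn gave -0.96 to 0.018 for prss59.1, -1.50 to 0.21 for ela2l and -1.03 to 0.024 for CEL ENSDARG00000029822, the upper values without Control-2. The median r among enzyme genes stayed between 0.976 and 0.988 under its 17 alternatives, and the log2 ratio of the summed level between -1.19 and -0.06 under its 13.

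The labels number the fish 1 to 4 within each diet, without saying what a number stands for. Deviations of same-numbered fish had r of 0.20, 0.35, 0.08 and 0.45, and 3 of 4 numbers matched best with their own. The mean r was 0.27 for the same number and -0.09 for different numbers. These values are descriptions with no test, and what a number stands for cannot be told from them. With the number as a replicate block, edgeR gave log2 fold changes of -0.73 to -0.54 (adjusted p 0.740 to 0.8004) and called 0 enzyme genes. With 4 fish per diet, the 95% interval of every enzyme gene held 0.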
